A study of Mus musculus with 9 samples.

Results

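The 4 genes described here, Ccl2, Ccl28, Cxcl16 and Cxcl1, encode chemokines that kidney tubule cells can make. They were chosen by name, and all 4 are listed in both tables of UMI counts (unique molecular identifiers, 1 per captured transcript), out of 19858 gene symbols in either table. Gm17268, a predicted gene that spans Ccl2 on the other strand, was read beside them.

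Chemokines are small secreted proteins that steer leukocytes along a gradient by binding G protein-coupled receptors on their surface. Ccl2 draws Ccr2-bearing monocytes, Cxcl1 draws neutrophils through Cxcr2, Cxcl16 is made as a membrane protein that Adam10 and Adam17 can shed and that binds Cxcr6 on T cells, and Ccl28 is an epithelial chemokine for cells with Ccr10 or Ccr3. In injured kidney, tubule cells are a known source of Ccl2 and Cxcl1, whose genes are textbook targets of NF-kB.

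Nuclear polyA RNA was counted in single GFP-sorted kidney nuclei of 9 male mice aged 11 to 19 weeks. Of these, 2 were sampled 7 days and 3 were sampled 28 days after ischemia-reperfusion injury (IRI), in which both renal pedicles were clamped for 18 min. These 5 were of the strain Krt20T2A-CE; INTACTnuGFP/+ and had received 0.05 mg/g tamoxifen. In them GFP marks descendants of cells that expressed Krt20, a keratin of injured tubule, when tamoxifen was given, so by design the sort leaves out tubule cells that never switched on Krt20. The 4 control mice were of the strain Six2TGC; Rosa26rtTA; pTRE-H2BeGFP, were fed doxycycline at 625 mg/kg of food, and carried GFP in nuclei of the whole nephron; control 1 had no surgery and controls 2 to 4 had a sham operation. In any contrast of IRI with control, injury thus cannot be told apart from strain, drug and sort, all of which day 28 and day 7 mice had in common.

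The tables held 27738 nuclei, 7434 from day 7, 7188 from day 28 and 13116 from control mice, and libraries ranged from 1833617 to 14641038 UMIs. Within a library a gene was listed either in no nucleus or in at least 3, so a listed 0 may stand for a gene seen in fewer nuclei. The 4 controls and day 28 mouse 1 shared one set of cell barcode starts and the other 4 IRI libraries another, and no pair of libraries shared more than 26 barcodes (at most 1.02% of the smaller one). Day 28 mouse 1 also had the highest serum creatinine 48 h after surgery, 0.488 mg/dL, against 0.133 to 0.255 mg/dL in the other 4 IRI mice, and its chemokine values stand apart below, so results that rest on it are given with and without it. Clusters named by markers gave 22962 proximal tubule-like (PT-like) nuclei; classes are "-like" because they were rebuilt here. In PT-like nuclei the 14 markers of injured proximal tubule summed to 7032 and 7036 CPM (counts per 1000000 UMIs of the same nuclei) at day 7, 6168, 5796 and 5958 CPM at day 28 and 140.5 to 238.9 CPM in controls. The 14 markers of uninjured proximal tubule summed to 3357 to 6736 CPM in the IRI libraries and to 16330 to 18310 CPM in controls.

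The loci differ in what surrounds them. In GENCODE release M21 on GRCm38, Cxcl1 lies at chr5:90891241-90893115 and Ccl28 at chr13:119623819-119654359, both on the plus strand with no other gene over them. Cxcl16, on the minus strand at chr11:70453983-70459984, shares its 5′ end, over chr11:70459433-70459984, with Zmynd15 on the plus strand. Ccl2, on the plus strand at chr11:82035571-82037453 with 3 exons, lies wholly inside the intron of Gm17268, which runs on the minus strand over chr11:82028224-82038562. The annotated Gm17268 transcript has only 2 short exons of 35 and 31 bases, neither of which touches an exon of Ccl2. It is shown because so little of the gene is exonic, with the second exon in capitals.
Gm17268: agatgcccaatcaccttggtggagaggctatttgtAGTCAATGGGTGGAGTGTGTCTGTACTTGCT
The sources used here do not say whether the counting kept strand, and nuclear RNA includes unspliced transcripts, so reads of Ccl2 and Gm17268 cannot be told apart with certainty.

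RefSeq promoter windows on GRCm38.p6 were matched for Ccl28 and Cxcl1 by symbol; those of Ccl2 and Cxcl16 are not shown. They are printed because Cxcl1 was higher and Ccl28 lower in injured-state nuclei of all 5 IRI libraries (below). Each window runs over 240 bases on the plus strand, from 250 to 11 bases before the RefSeq start, at chr5:90890995-90891234 for Cxcl1 and chr13:119623569-119623808 for Ccl28. Capitals mark matches to GGGNNNNNCC, a loose form of the NF-kB site, searched on both strands.
Cxcl1: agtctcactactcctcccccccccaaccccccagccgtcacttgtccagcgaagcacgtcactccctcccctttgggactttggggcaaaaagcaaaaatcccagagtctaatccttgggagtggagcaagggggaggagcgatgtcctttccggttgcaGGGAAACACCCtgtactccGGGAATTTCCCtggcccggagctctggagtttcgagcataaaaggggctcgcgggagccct
Ccl28: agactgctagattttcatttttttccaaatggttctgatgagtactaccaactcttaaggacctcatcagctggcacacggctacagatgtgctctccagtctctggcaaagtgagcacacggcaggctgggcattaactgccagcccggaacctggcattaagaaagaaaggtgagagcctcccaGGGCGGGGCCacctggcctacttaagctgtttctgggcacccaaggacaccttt
The Cxcl1 window held 4 matches in 2 places, since each place is read on both strands 1 base apart: GGGAAACACC and GGAAACACCC, and GGGAATTTCC and GGAATTTCCC, which start 90, 89, 71 and 70 bases before the start. The Ccl28 window held 1 match, GGGCGGGGCC, 64 bases before the start. Of 32851 such windows, 44.2% held at least 1 match, so holding one is common. TGANTCA, the AP-1 site, had no match in either window and one in 6.58% of all windows.

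Ccl2 mRNA was close to 0 in control proximal tubule, present at day 7 and abundant at day 28 in PT-like nuclei. UMIs were summed per mouse over PT-like nuclei and scaled by TMM factors, and in such sums fewer expressing cells and less RNA per cell cannot be told apart. Ccl2 had 18.3 and 11.9 CPM in the day 7 mice, 256, 59.4 and 65.4 CPM in the day 28 mice and 1.11, 0.986, 1.31 and 0 CPM in the controls. The 3 groups did not overlap, and day 28 mouse 1 was well above the other day 28 mice. In edgeR's quasi-likelihood test over 14543 genes, with Benjamini-Hochberg adjusted p-values, the log2 fold change against control was 3.86 (SE 0.67, adjusted p = 0.00063) at day 7 and 6.90 (SE 0.63, adjusted p = 6.8e-06) at day 28. These counts rest on 330 UMIs at day 7, 1525 at day 28 and 18 in controls, where 9 of 10886 PT-like nuclei held a Ccl2 UMI. Of the 18 control UMIs, 7 came from the 16 control nuclei that fell in injured-state clusters. Without day 28 mouse 1 the day 28 change was 5.89, and within the barcode set of the controls, which leaves that mouse alone at day 28, it was 7.92. All comparisons between mice measure the spread between these samples, and both IRI comparisons use the same 4 controls.

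Cxcl1 mRNA, the neutrophil attractant, was already measurable in control tubule and was higher at day 28. PT-like levels were 103 and 64.2 CPM in the day 7 mice, 346, 100.0 and 94.1 CPM in the day 28 mice and 64.4, 24.4, 38.9 and 28.6 CPM in the controls. Every day 28 mouse exceeded every control, while the lower day 7 mouse lay at the level of control 1. The log2 fold change in edgeR was 2.18 (SE 0.46, adjusted p = 0.0024) at day 28 and 1.09 (SE 0.50, adjusted p = 0.089) at day 7, which did not pass the threshold of 0.05. Without day 28 mouse 1 the day 28 change was 1.30, and that call held (edgeR adjusted p = 0.0049). The day 7 call depended on the fit: a term for barcode set gave 2.92 (edgeR adjusted p = 0.0046), estimated through day 28 mouse 1 alone, since no day 7 mouse shares the set of the controls. Without control 1 it was 1.38 (edgeR adjusted p = 0.048) and without day 28 mouse 1 it was 1.08 (edgeR adjusted p = 0.013).

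Cxcl16 mRNA, the membrane-bound ligand, was higher than control at day 28. It had 25.2 and 21.2 CPM in the day 7 mice, 63.8, 49.7 and 53.6 CPM in the day 28 mice and 34.1, 31.1, 22.6 and 29.2 CPM in the controls. The day 28 mice lay close together and above all other mice, and the day 7 mice overlapped the lower controls. The log2 change was 0.93 (SE 0.21, adjusted p = 0.0032) at day 28 and −0.33 (SE 0.24, adjusted p = 0.26) at day 7 in edgeR. Within the barcode set of the controls, where day 28 mouse 1 stands alone and is assumed to vary as the controls do, the day 28 change was 1.13 (edgeR adjusted p = 0.036). Adam10 and Adam17, the proteases that shed Cxcl16, did not pass in any of the 3 comparisons with all libraries in the fit; Adam10 averaged 191 ± 6.65 CPM at day 7 (SD, n = 2), 147 ± 11.0 CPM at day 28 (SD, n = 3) and 200.1 ± 33.3 CPM in controls (SD, n = 4).

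Ccl28 mRNA, the mucosal epithelial chemokine, varied more among controls than between groups. It had 32.4 and 34.3 CPM in the day 7 mice, 35.02, 45.9 and 50.8 CPM in the day 28 mice and 82.9, 48.1, 101 and 24.2 CPM in the controls. Control 4, the shallowest library, was the lowest of all mice and control 3 the highest, so the groups overlapped. The log2 change in edgeR was −0.97 (SE 0.43, adjusted p = 0.077) at day 7 and −0.56 (SE 0.37, adjusted p = 0.24) at day 28, and neither passed. A single nucleus of day 7 mouse 1 held 144 of that library's 413 PT-like Ccl28 UMIs, and without it the unscaled level was 21.8 CPM in place of 33.5 CPM. Without control 4 both changes passed in edgeR, at −1.29 (adjusted p = 0.0066) at day 7 and −0.80 (adjusted p = 0.033) at day 28. Nuclei were also thinned to 1000 UMIs each, which removes differences in depth. Ccl28 was then detected in 1.22% and 2.73% of PT-like nuclei in the day 7 libraries, in 3.13%, 3.34% and 3.88% in the day 28 libraries and in 6.02%, 3.71%, 5.35% and 4.98% in the control libraries. Only 321 of the 2107 PT-like nuclei of control 4 were deep enough for this. At 500 UMIs, which 1757 of them reach, control 4 had 0.968%, below day 7 mouse 2 at 1.59%, so the groups overlapped.

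**Figure D1:**
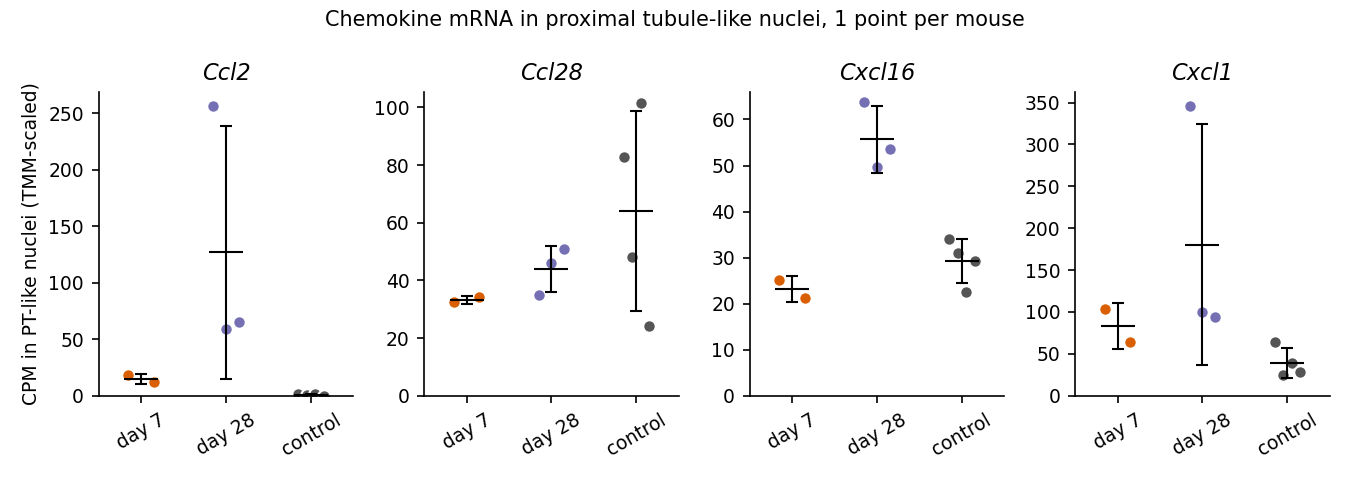
Level of each chemokine mRNA in PT-like nuclei, in TMM-scaled CPM on linear axes that differ between panels, with 1 point per mouse and bars at the group mean ± SD. Ccl2 separates the 3 groups, Cxcl16 and Cxcl1 place all 3 day 28 mice above all 4 controls, Ccl28 overlaps between groups, and day 28 mouse 1 is the high point for Ccl2 (256 CPM) and Cxcl1 (346 CPM).

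Counted together, 1 of the 4 chemokines was called higher and 0 lower at day 7 against control, where 26.4% of all 14543 genes tested were called higher and 24.4% lower. At day 28 against control 3 of 4 were called higher and 0 lower, against 25% and 20.8% of all genes. Their median log2 change was 0.38 at day 7 and 1.55 at day 28, against 0.02 and 0.06 over all genes tested.

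Between the 2 times, which share strain and sort, Ccl2 and Cxcl16 were higher at day 28 than at day 7. The log2 difference was 3.04 (SE 0.61, adjusted p = 0.012) for Ccl2 and 1.26 (SE 0.25, adjusted p = 0.012) for Cxcl16 in edgeR. In the same edgeR fit it was 1.09 (SE 0.56, adjusted p = 0.28) for Cxcl1 and 0.41 (SE 0.44, adjusted p = 0.63) for Ccl28, and neither passed. So 2 of 4 were called higher and 0 lower, against 4.41% of all genes called higher and 1.37% lower. Both calls ended in edgeR when either day 7 mouse was left out. Without day 7 mouse 1, Ccl2 differed by 3.39 (edgeR adjusted p = 0.068) and Cxcl16 by 1.39 (adjusted p = 0.079). Without day 7 mouse 2, Ccl2 differed by 2.76 (edgeR adjusted p = 0.19) and Cxcl16 by 1.13 (adjusted p = 0.23). Without day 28 mouse 1 both calls held and the Ccl2 difference was 2.03. Within the 4 libraries of the other barcode set, day 28 mice 2 and 3 against both day 7 mice, edgeR gave a difference of 2.08 for Ccl2 (adjusted p = 0.0014), 1.20 for Cxcl16 (adjusted p = 0.0036) and 0.27 for Cxcl1 (adjusted p = 0.41). There Ccl28 was higher at day 28, by 0.59 (edgeR adjusted p = 0.043). A p above the threshold does not show that Cxcl1 or Ccl28 was equal at both times.

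Within PT-like nuclei the chemokines split by injury state. A cluster was called injured-state when its injured proximal tubule markers (Havcr1, Vcam1, Krt20 and others) outscored its uninjured markers; chemokine genes took no part in the clustering. By this rule the injured state took 91.1% and 91.5% of PT-like nuclei at day 7 and 75.1%, 92.1% and 85.5% at day 28, while no control exceeded 0.19%. Levels by state are given as CPM without TMM scaling and, since states come from the same nuclei, with no test. The uninjured state of IRI mice lay mostly in other clusters (23, 24, 30 and 34) than that of controls, though not in day 28 mouse 1. Of the 340 uninjured-state nuclei of that mouse, 116 were in cluster 34 and 77 in cluster 0, a mostly control cluster. Levels given below for clusters 23, 24, 30 and 34 thus leave out much of that mouse.

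Ccl2 sat in the injured state. In injured-state nuclei it had 20.5 and 14.0 CPM at day 7 and 395, 66.2 and 82.2 CPM at day 28. In uninjured-state nuclei of the same mice it had 2.02 and 3.56 CPM at day 7 and 7.84, 8.57 and 4.30 CPM at day 28, and in the uninjured-state nuclei of controls 0.405, 0.454, 0.810 and 0 CPM. The injured state was higher in 5 of 5 IRI libraries, by 3.36 ± 1.43 on the log2(CPM + 1) scale (SD, n = 5). Each uninjured-state value of an IRI library rests on only 2 to 7 UMIs.

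Cxcl1 followed the same split, with 114 and 75.9 CPM at day 7 and 528, 112 and 119 CPM at day 28 in injured-state nuclei. Uninjured-state nuclei had 22.2 and 14.2 CPM at day 7, 29.4, 9.79 and 2.87 CPM at day 28 and 58.9, 22.5, 30.4 and 29.1 CPM in controls. The injured state was higher in 5 of 5 IRI libraries, by 3.42 ± 1.15 (log2, SD, n = 5), and 4 of 5 uninjured-state IRI values lay below every control.

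Cxcl16 had 27.4 and 24.4 CPM at day 7 and 96.2, 54.8 and 64.7 CPM at day 28 in injured-state nuclei. It had 11.1 and 12.5 CPM at day 7, 7.84, 13.5 and 20.1 CPM at day 28 and 31.2, 28.6, 17.9 and 29.7 CPM in controls in uninjured-state nuclei. The injured state was again higher in 5 of 5 libraries, by 1.84 ± 0.99 (log2, SD, n = 5), and only the day 28 injured-state nuclei exceeded all control values. By cluster, the uninjured state of IRI mice had 26.0 CPM in cluster 23 and 6.98, 6.13 and 0 CPM in clusters 24, 30 and 34. In day 28 mice 2 and 3, cluster 23 had 50.9 and 44.9 CPM, on 8 and 9 UMIs. Injured-state clusters ranged from 17.4 CPM in cluster 6 to 92.0 CPM in cluster 14. The part of tubule segment in this gap was not tested.

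Ccl28 ran the other way. It had 15.4 and 31.8 CPM at day 7 and 9.70, 26.7 and 22.2 CPM at day 28 in injured-state nuclei, and 240 and 112 CPM at day 7 and 118, 290 and 260 CPM at day 28 in uninjured-state nuclei. The injured state was lower in 5 of 5 libraries, by −3.20 ± 0.81 (log2, SD, n = 5). Every uninjured-state IRI value was above those of the controls, at 75.9, 44.3, 80.4 and 24.6 CPM. Without the single nucleus named above, that of day 7 mouse 1 was 95.9 CPM. These IRI values include cluster 30, described next, and were not computed without it. In the other main uninjured-state clusters of day 7, 23 and 24, mouse 1 had 8.22 and 98.1 CPM and mouse 2 had 9.04 and 156 CPM. Whether the uninjured state exceeds controls without cluster 30 was not tested. Cluster 30, an uninjured-state cluster that was called PT-like on a weak marker score, held 455 Ccl28 UMIs (929 CPM) in 170 nuclei, nearly all from IRI mice. The uninjured state of IRI mice was not uniform, with 185 CPM in cluster 24, 145 CPM in cluster 34 and only 6.71 CPM in cluster 23. Injured-state clusters ranged from 3.68 CPM in cluster 14 to 89.6 CPM in cluster 26. Clusters 30 and 34 had Slc22a19, a gene of the S3 segment, among their leading genes. The part of tubule segment in this split was not tested. Without the clusters of weak score the day 7 change of Ccl28 against control was −1.42 (edgeR adjusted p = 0.022).

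**Figure D2:**
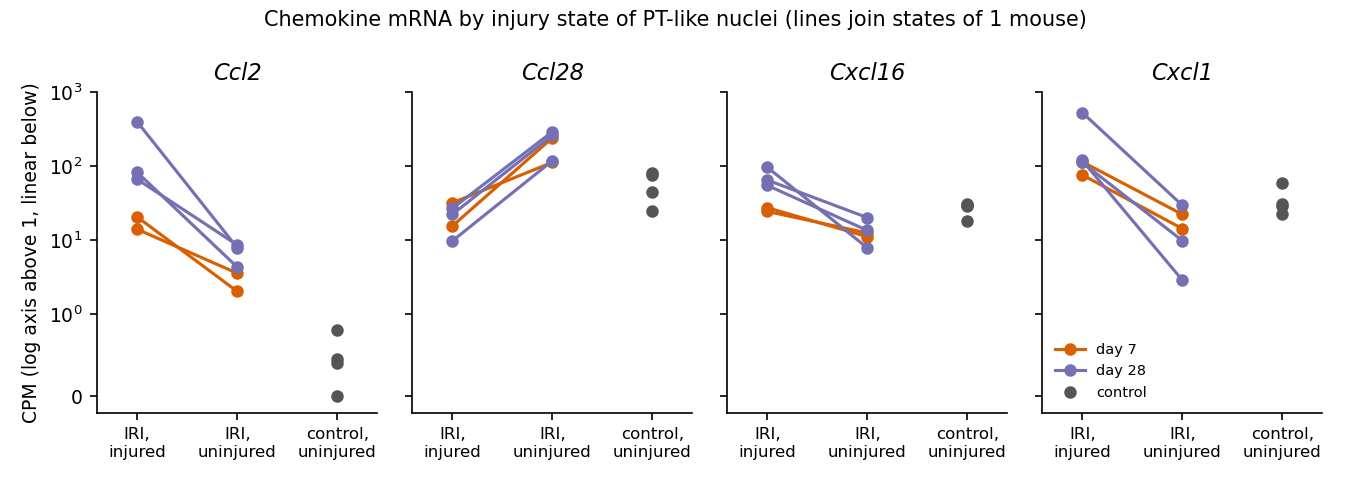
CPM of each chemokine by injury state of PT-like nuclei, 1 point per library, on an axis that is logarithmic above 1 and linear below, with lines joining the 2 states of a mouse. Ccl2, Cxcl16 and Cxcl1 are higher and Ccl28 is lower in injured-state than in uninjured-state nuclei in all 5 IRI mice; the rightmost column of each panel shows uninjured-state nuclei of the 4 controls.

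The split was also seen when single nuclei were sorted by whether they had a UMI of Havcr1 (KIM-1, a marker of acute tubule injury) and of Vcam1 (an adhesion molecule of persistently injured tubule). This sorting uses no cluster beyond the PT-like class. Both genes are among the markers that set the injured state, so it is not independent of the split by state. Nuclei with both had 30.0 and 25.7 CPM of Ccl2 at day 7 and 508, 125 and 127 CPM at day 28, against 7.27 and 3.16 CPM at day 7 and 132, 28.6 and 24.9 CPM at day 28 in nuclei with neither. Ccl2, Cxcl16 and Cxcl1 were higher in nuclei with both in 5 of 5 IRI libraries, by 2.18 ± 0.32, 0.91 ± 0.38 and 2.51 ± 0.30 (log2, SD, n = 5), and Ccl28 was lower in 5 of 5, by −2.65 ± 0.96. Nuclei with both markers were also deeper (median 3616.5 UMIs, against 2025 UMIs in nuclei with neither), and the part of depth in this sorting was not tested. Cxcl16 was the 1 member higher in nuclei with Vcam1 only than in nuclei with Havcr1 only in 5 of 5 libraries, by 0.56 ± 0.25; Ccl2 was higher in 4 of 5, and Ccl28 and Cxcl1 in 2 of 5 each.

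The chemokines overlapped in single nuclei to different degrees. Among PT-like nuclei thinned to 1000 UMIs at day 28, 337 of 5401 held Ccl2, and 32.1% of these also held Cxcl1, against 7.96% of those without Ccl2. By mouse, Cxcl1 was in 36.4% of Ccl2 nuclei against 16.6% of the others in day 28 mouse 1, 27.3% against 6.02% in mouse 2 and 34.5% against 6.01% in mouse 3. Cxcl16 had no common direction: it was in 13.9% of Ccl2 nuclei against 5.29% of the others in day 28 mouse 1, 6.0% against 4.68% in mouse 2 and 3.45% against 5.91% in mouse 3. Ccl28 was in 1 of the 337 Ccl2 nuclei (0.297%), against 3.61% of the others. The day 7 nuclei showed the same pattern for Cxcl1, held by 20.99% of 81 Ccl2 nuclei against 7.28% of the others, and Ccl28 was in 0 of the 81, against 1.99% of the others. Havcr1 was in 9.24% of day 28 Ccl28 nuclei, against 18.4% of those without Ccl28. These shares pool nuclei of several mice and are descriptions.

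At finer scale Ccl2 was concentrated in a few injured-state clusters. Cluster 14, led by Gm17268 and Ccl2 themselves, reached 391.8 CPM of Ccl2 and 501 CPM of Cxcl1, and 88.8% of its 833 nuclei came from day 28 mouse 1. Cluster 10, led by Rtn1 and drawn mostly from day 28 mice 2 and 3, had 144 CPM of Ccl2 and 198 CPM of Cxcl1, and in it day 28 mouse 2 had 156 CPM and mouse 3 had 121 CPM of Ccl2. Cluster 15, which mixes 480 day 7 and 340 day 28 nuclei, had 81.2 CPM of Ccl2. Ccl2 then came to 60.4 CPM in cluster 16, 48.2 CPM in cluster 4, 33.5 CPM in cluster 7 and 32.5 CPM in cluster 26. The lowest injured-state levels were 14.4 CPM in cluster 13, 9.40 CPM in cluster 6, 7.23 CPM in cluster 12 and 5.44 CPM in cluster 3. Vcam1 had 1024 CPM in clusters 14 and 10, 691 CPM in cluster 15, 470 CPM in cluster 12 and 443 CPM in cluster 4, and 113.5 to 321 CPM in the other injured-state clusters. Havcr1 had 1538 CPM in cluster 4, 1197 CPM in cluster 6 and 1051 CPM in cluster 15, and 188 to 798 CPM in the others, with 561 CPM in cluster 14 and 281 CPM in cluster 10.

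Ccl28 marked another part of the tubule. Among control clusters it had 179 CPM in cluster 19, led by Cyp7b1 and Slc22a19 of the S3 segment, 122.8 CPM in cluster 1 and 105 CPM in cluster 17, which Slc7a13 of S3 helps lead. It had 11.5 CPM in cluster 0 and 10.2 CPM in cluster 5, both led in part by Slc5a12, a lactate carrier of early proximal tubule. In cluster 19 the 4 controls had 232, 84.9, 204 and 79.4 CPM of Ccl28, so controls 2 and 4 were well below controls 1 and 3. Controls 1, 2 and 3 each supplied most nuclei of some of these clusters, so cluster and mouse cannot be fully told apart. Cxcl16 ran in the opposite direction in these control clusters, with 7.04 CPM in cluster 19, 6.37 CPM in cluster 1, 40.4 CPM in cluster 0 and 52.5 CPM in cluster 5.

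A mostly control cluster also held Cxcl1 and Cxcl16. Cluster 18, with 597 control nuclei and Cxcl10 and Cryab among its leading genes, had 171, 114, 101 and 127 CPM of Cxcl1 in controls 1 to 4 and 74.0, 74.0, 75.1 and 84.5 CPM of Cxcl16. Its Ccl2 rested on 3 UMIs, 1 from control 1 and 2 from control 2. Gm17268 had 13, 14, 0 and 4 UMIs there in controls 1 to 4, out of 18, 16, 14 and 4 in all their PT-like nuclei. Its Vcam1 level was 90.7 CPM, against 0.783 to 1.85 CPM in control clusters 0, 1, 5, 8, 17 and 19.

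**Figure D3:**
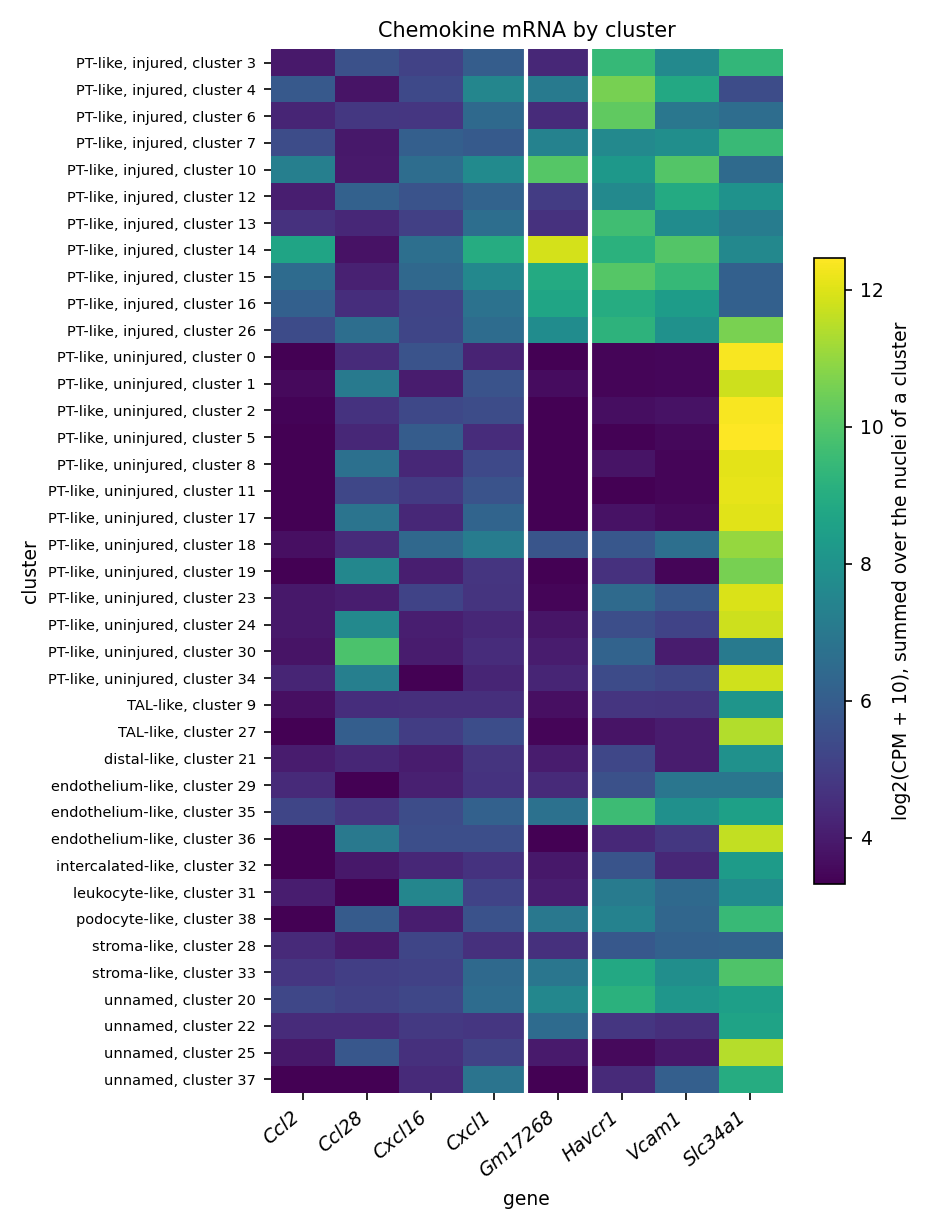
Level of each chemokine and Gm17268, as log2(CPM + 10), in clusters of nuclei, beside Havcr1, Vcam1 and Slc34a1, with clusters in rows and genes in columns. Ccl2, Gm17268 and Cxcl1 peak together in cluster 14, Ccl28 peaks in cluster 30 at 929 CPM, and Cxcl16 peaks in leukocyte-like cluster 31 at 174.5 CPM.

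Outside the proximal tubule each chemokine had its own spread, on far fewer nuclei. Thick ascending limb-like (TAL-like) nuclei of IRI mice held 2 Ccl2 UMIs in 451 nuclei, and those of controls 2 in 875, both under the floor of 3 counts. In TAL-like nuclei Cxcl1 had 13 UMIs (15.9 CPM) in IRI mice and 39 UMIs (26.2 CPM) in controls, Cxcl16 had 12 UMIs (14.7 CPM) and 27 UMIs (18.1 CPM), and Ccl28 had 26 UMIs (31.8 CPM) and 47 UMIs (31.6 CPM). No member had enough TAL-like counts to pass the filter and be tested there. The IRI and control nuclei of this class lie partly in different clusters: cluster 27, with 318 control, 14 day 28 and 1 day 7 nuclei and 2740 CPM of Slc34a1, a proximal tubule transporter, held 34 of its Cxcl1 and 56 of its Ccl28 UMIs. Most IRI nuclei of the class were in cluster 9, with 18 Cxcl1 and 17 Ccl28 UMIs, and the part of this in the levels was not tested. The planned test of the difference in IRI effect between PT-like and TAL-like nuclei is void for these genes, since they passed its filter only through their PT-like counts, and its values are not read here.

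Leukocyte-like nuclei carried Cxcl16, with 29 UMIs in 173 IRI nuclei (125.7 CPM), but only 1 Ccl2 UMI. Stroma-like IRI nuclei held 14 Ccl2 UMIs in 365 nuclei (17.5 CPM), and endothelium-like IRI nuclei 18 in 347 (21.5 CPM). Intercalated-like and podocyte-like nuclei held none in 74 and 41 IRI nuclei, which allows up to 24.0 and 33.7 CPM. In the endothelium-like class, cluster 35 also held 760 CPM of Havcr1, a tubule injury transcript, and 102 of the 129 control nuclei were in cluster 36, which held 3171 CPM of Slc34a1 beside 119 CPM of Ccl28. The part of free RNA or nuclei caught together in these values was not tested. At day 28 a Ccl2 UMI was found in 11.5% of PT-like nuclei (median 2798 UMIs) and 0.575% of TAL-like nuclei (median 1613.5 UMIs), and after thinning to 1000 UMIs in 6.24% of PT-like and 0.408% of TAL-like nuclei. In controls Ccl28 was in 6.97% of PT-like nuclei (median 1703 UMIs) and in 0 of 255 distal-like nuclei (median 1038 UMIs), which allows a share of nuclei with a UMI, not of nuclei expressing the gene, of up to 1.18% at this depth. Intervals and floors cover counting error only.

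Gm17268 was higher after IRI, as Ccl2 was. In PT-like nuclei it had 32.2 and 9.16 CPM in the day 7 mice, 2514, 339 and 482 CPM in the day 28 mice and 3.98, 3.94, 2.04 and 2.48 CPM in the controls. All IRI mice were above all controls, and day 28 mouse 1 was again the highest. The log2 change in edgeR was 2.74 (SE 0.78, adjusted p = 0.012) at day 7, 8.47 (SE 0.81, adjusted p = 9.1e-06) at day 28 and 5.73 (SE 0.93, adjusted p = 0.0041) at day 28 against day 7. Without day 7 mouse 1 the day 7 call ended (1.56, edgeR adjusted p = 0.20). Without day 28 mouse 1 the day 28 change was 7.04, and without day 7 mouse 2 the call between the times ended (5.09, edgeR adjusted p = 0.062).

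The 2 genes were often counted in the same nuclei but not in a fixed ratio. There were 9.82, 5.71 and 7.38 Gm17268 UMIs per Ccl2 UMI in PT-like nuclei of the day 28 mice, 1.76 and 0.771 in those of the day 7 mice and 3.6, 4.0 and 1.56 in those of controls 1 to 3, while control 4 had 4 UMIs of Gm17268 and none of Ccl2. Every day 28 ratio was above every other ratio. At day 28, 82.3% of PT-like nuclei with Ccl2 also held Gm17268, and at day 7 41.6% did, at 53.8% in mouse 1 and 16.7% in mouse 2. In the uninjured state of IRI mice, 0 of 4 nuclei with Ccl2 at day 7 and 0 of 14 at day 28 held Gm17268. Outside the PT-like class the day 28 ratios were 6.67 in stroma-like and 5.0 in endothelium-like nuclei, on 9 Ccl2 UMIs each, and 7.32 in unnamed nuclei, on 75. The same 3 sets had 1.6, 1.67 and 1.59 at day 7. Lower day 28 ratios were found in TAL-like (2.0) and leukocyte-like nuclei (1.0), on 2 and 1 Ccl2 UMIs. In uninjured-state PT-like nuclei the ratio was 1.64 at day 28, on 14 Ccl2 UMIs. Whether Gm17268 counts are reads of Ccl2, of the opposite strand or of its own spliced transcript was not tested.

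**Figure D4:**
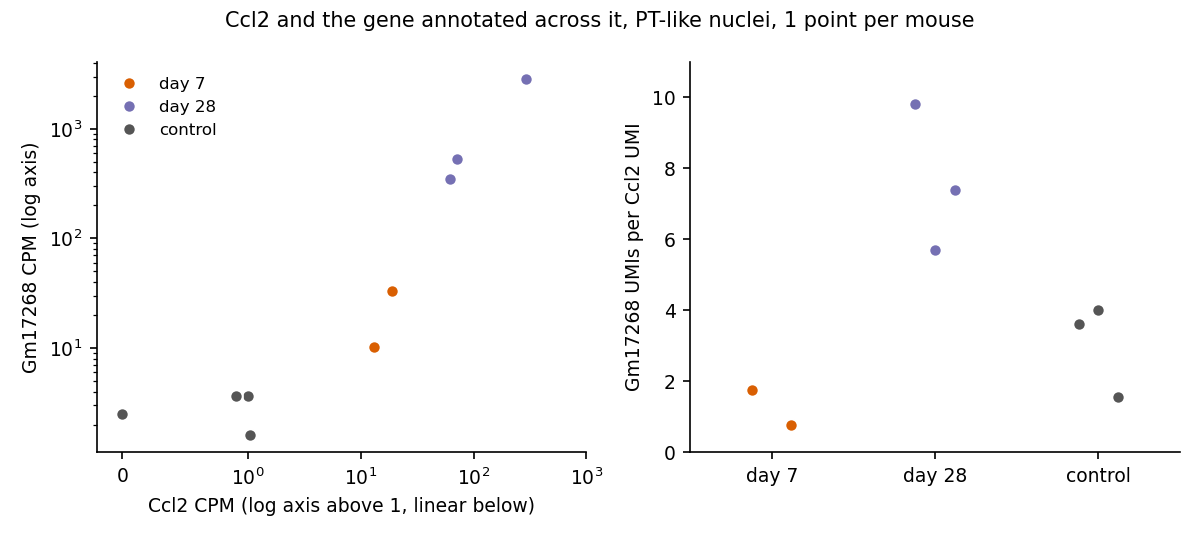
Left, CPM of Gm17268 against CPM of Ccl2 in PT-like nuclei, without TMM scaling, on log axes (the Ccl2 axis linear below 1); right, the number of Gm17268 UMIs per Ccl2 UMI by group, 1 point per mouse. The 3 day 28 mice lie between 5.71 and 9.82 and the 2 day 7 mice at 0.771 and 1.76; control 4, with no Ccl2 UMI, has no ratio.

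Likeness over 39 clusters of at least 50 nuclei, as Pearson correlation of log2(CPM + 10) among 12488 genes, described which genes were distributed most like each chemokine. The clusters share libraries and depth, and no test was made. Nearest to Ccl2 were Gm17268 (r = 0.924), Cxcl2 (r = 0.868) and Asz1 (r = 0.859). Nearest to Cxcl1 were Cldn1, a tight junction claudin (r = 0.844), Krt20, the gene that drives the lineage label (r = 0.843), and Klf6, an injury-responsive transcription factor (r = 0.835). Nearest to Ccl28 were Acsm3, a medium-chain acyl-CoA synthetase (r = 0.92), Vmn1r19 (r = 0.901) and 4930533I22Rik (r = 0.887). For Cxcl16 the nearest were Apobec1 (r = 0.746), Adam11 (r = 0.742) and Ptpn22 (r = 0.738), of which Apobec1 and Ptpn22 also peaked in leukocyte-like cluster 31.

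Other ligands of the family were called too. Of 21 ligands listed, the 4 members included, 14 were tested; 5 were higher and 2 lower at day 7, where 26.4% of all genes were higher and 24.4% lower, and 7 higher and 0 lower at day 28, where 25% were higher and 20.8% lower. Cxcl2, the close relative of Cxcl1 that also acts through Cxcr2, was higher by 4.26 (SE 0.47, edgeR adjusted p = 2.7e-05) at day 7 and 5.05 (SE 0.46, adjusted p = 6.3e-06) at day 28. Ccl7, a monocyte attractant like Ccl2, had 42.7, 6.17 and 4.24 CPM in the day 28 mice and 0, 1.23, 0 and 0 CPM in the controls. Its log2 change was 5.68 at day 28 (SE 1.11, edgeR adjusted p = 0.0014) and 4.04 without day 28 mouse 1, the high one (SE 0.87, edgeR adjusted p = 0.0021). Cxcl10, which draws Cxcr3-bearing T cells, was higher by 1.53 at day 28 (SE 0.32, edgeR adjusted p = 0.0024). Cxcl5, a neutrophil attractant, had 304 UMIs at day 7 and 20 at day 28. It was not listed for controls and was taken as 0 there. Its level was 101-fold higher at day 7 and 7.62-fold higher at day 28 than a floor of 3 counts over the control group. UMIs in fewer than 3 nuclei of each control library may be hidden, so neither fold is a lower bound. Ccl25 (1.23, SE 0.21) and Ccl5 (2.58, SE 0.96) were higher at day 7, and Cxcl17 (−3.10, SE 0.70) and Cxcl12 (−1.42, SE 0.52) were lower.

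Receptors of the 4 members were scarce, and none had enough PT-like counts to be tested; 3 of the 7 listed, Ccr2, Cxcr2 and Cxcr6, were in the tables. Ccr2 was found mainly in leukocyte-like nuclei, with 22 UMIs (143.5 CPM) in 92 nuclei at day 7, 48 UMIs (620 CPM) in 81 nuclei at day 28 and 5 UMIs in 10 control nuclei. PT-like nuclei held 16 Ccr2 UMIs at day 7, 9 at day 28 and 4 in controls. Cxcr6 had 23 UMIs in day 28 PT-like nuclei, each in a separate nucleus, and 1 UMI at day 7. Of the 23, 17 were in mouse 2 and 6 in mouse 3. It was not listed for controls and was taken as 0 there. Of the 5 chemokine receptors of any kind that were tested, 1 was higher and 3 lower at day 7, where 26.4% of all genes were higher and 24.4% lower. At day 28 2 were higher and 1 lower, where 25% were higher and 20.8% lower. Ackr3, a scavenger of Cxcl12, was higher at both times (2.03 at day 7, SE 0.34, and 2.05 at day 28, SE 0.31). Ackr4, Ccr4 and Cx3cr1 were lower at day 7. At day 28 Ccr9 was higher (3.03, SE 0.73) and Ccr4 lower (−3.00, SE 0.76).

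The leukocyte markers seen in PT-like sums are given beside these results. Of 17 markers 13 were in the tables, and they summed to 60.6 and 62.0 CPM at day 7, 109, 54.8 and 84.5 CPM at day 28 and 46.8, 58.3, 20.8 and 61.7 CPM in controls. Day 28 mouse 1 was the highest, and the groups overlapped. In that mouse Cd74 had 55.65 CPM, against 22.8 and 26.3 CPM in mice 2 and 3, and Cd68, C1qb and C1qc were at 0. Control 4 had 7 of the 13 markers above 0, with Ptprc among those at 0. Of 9 monocyte and macrophage genes tested, 0 were higher and 1 lower (Cx3cr1) at day 7, where 26.4% of all genes were higher and 24.4% lower, and 0 were called at day 28, where 25% were higher and 20.8% lower. Leukocyte-like nuclei themselves held 1 Ccl2 UMI in all IRI libraries.

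Most tested genes of NF-kB signalling were called higher at both times. Of 5 subunits tested, 4 were higher at day 7 and 4 at day 28, against 26.4% and 25% of all genes; Nfkb2, the other one, did not pass (0.38 at day 7, edgeR adjusted p = 0.47, and 0.87 at day 28, adjusted p = 0.092). The 5 had medians of 1.61 and 1.37 on the log2 scale; Nfkb1, encoding p105, was higher by 3.46 (SE 0.22, edgeR adjusted p = 5.5e-07) at day 7 and 3.02 (SE 0.21, adjusted p = 8.5e-07) at day 28. Relb, of the alternative pathway, was higher by 4.20 (SE 0.37) and 4.11 (SE 0.36). Of 9 inhibitors and feedback genes 7 were higher and 1 (Nfkbib) lower at day 7, where 26.4% of all genes were higher and 24.4% lower. At day 28 8 were higher and 0 lower, where 25% were higher and 20.8% lower. Among those higher were Birc3, a ubiquitin ligase (4.41, SE 0.32, and 4.38, SE 0.31), and Tnfaip3, encoding A20 (3.25, SE 0.32, and 3.30, SE 0.30). Nfkbia, encoding IκBα, averaged 54.4 ± 8.17 CPM at day 7 (SD, n = 2), 108 ± 48.1 CPM at day 28 (SD, n = 3) and 45.9 ± 10.9 CPM in controls (SD, n = 4), and passed at day 28 (1.21, SE 0.29, edgeR adjusted p = 0.0050) and not at day 7. None of these 14 genes was called between day 28 and day 7 in edgeR, where only 4.41% of all genes were higher and 1.37% lower. The difference from the Ccl2 and Cxcl16 calls was not tested.

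Of 14 tested receptors of cytokines that induce chemokines, 8 were higher and 2 lower at day 7, where 26.4% of all genes were higher and 24.4% lower. At day 28 7 were higher and 3 lower, where 25% were higher and 20.8% lower. The medians were 0.99 at day 7 and 0.78 at day 28. Osmr, the oncostatin M receptor, was higher by 5.95 (SE 0.39) and 5.71 (SE 0.38), Tlr4, the endotoxin receptor, by 4.02 (SE 0.43) and 3.59 (SE 0.41), and Il1r1, the interleukin-1 receptor, by 2.59 (SE 0.60) and 4.38 (SE 0.54). Il17ra (−1.14, SE 0.23, and −0.94, SE 0.20) and Il1rap (−0.78, SE 0.29, and −1.24, SE 0.26) were lower at both times in edgeR. Without day 28 mouse 1 no call ended among the listed ligands, signalling genes and receptors, while Adam17 (0.51, edgeR adjusted p = 0.046), Il6st (0.54, adjusted p = 0.024) and Ccl5 (2.13, adjusted p = 0.036) passed as higher and Ccl27a (−1.51, adjusted p = 0.0081) as lower at day 28 against control. These lists, like the chemokines, were drawn up with earlier results of these data known.

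**Figure D5:**
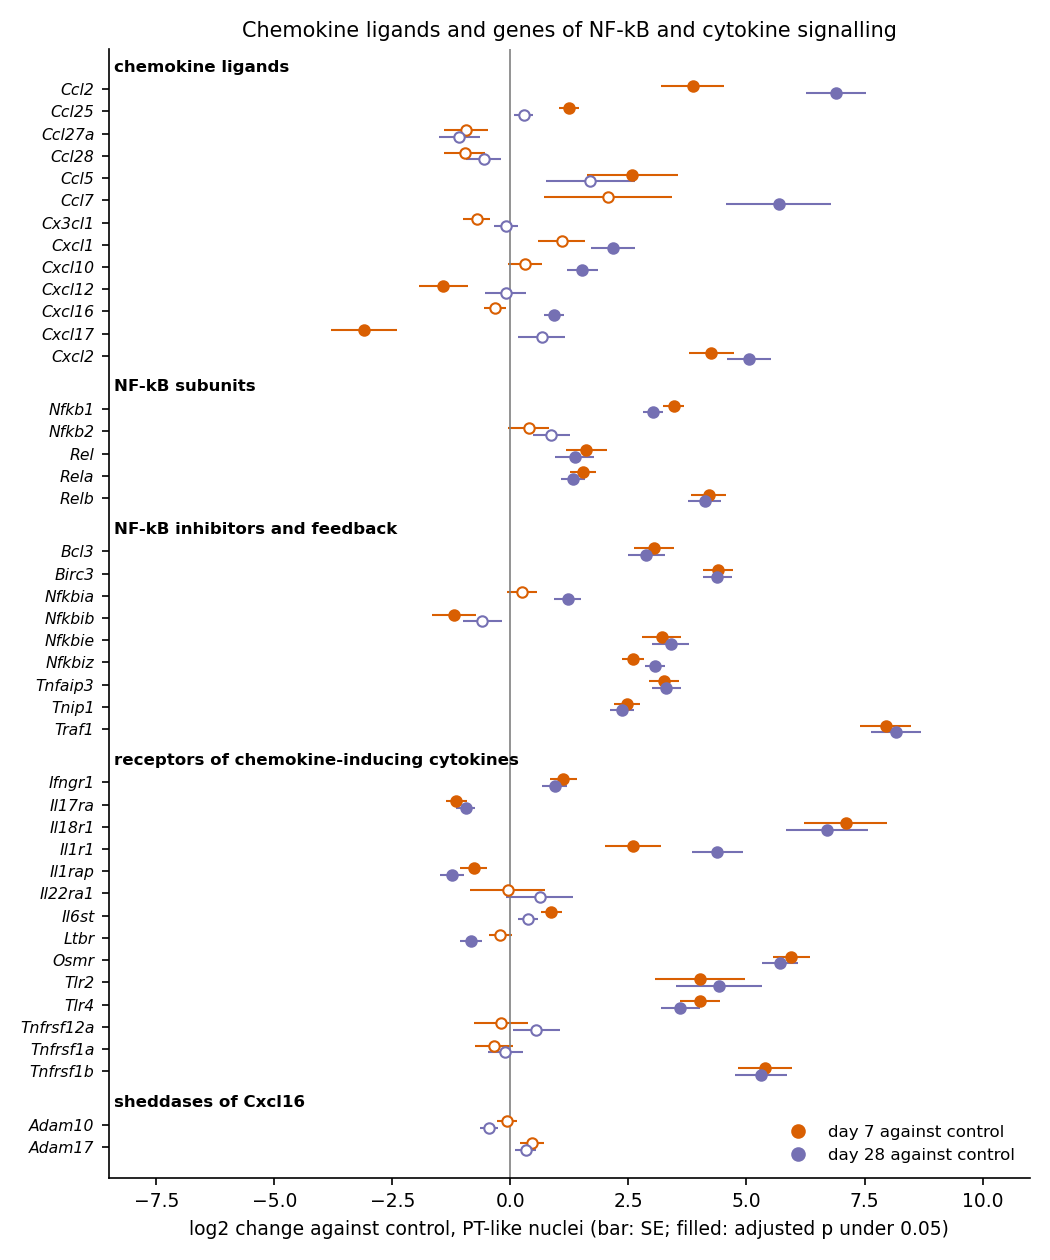
Log2 fold change with its SE in PT-like nuclei, day 7 and day 28 each against control, for chemokine ligands and genes of NF-kB and cytokine signalling that were tested. Ccl2 and Cxcl2 lie far right at both times, Ccl28 lies left of 0 without passing, and Cxcl5 is left out because it was not listed for controls.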

How the data were processed

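The authors deposited UMI counts per gene and nucleus in one table for the controls and another for the IRI libraries, with a table of nuclei; Cell Ranger with STAR, the mm10 genome and Seurat were used, per the submitters' processing notes, which give no versions here, and nuclei were sorted on Hoechst and GFP with doublets gated out at the sorter, per the labels' protocols. Either 10x 3′ kit v2 or v3 was used, per the labels, and which library had which is not given in the sources used here. No doublet caller was run. A gene missing from a table was taken as 0.

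Nuclei were clustered with scanpy 1.11.5 (2000 variable genes, 30 principal components, 20 neighbours, Leiden resolution 2, seed 0, 40 clusters), leaving out 25 chemokine and chemokine receptor genes and Gm17268. Clusters were first named from marker lists (score of at least 0.5, at least 3 markers raised). Those left were scored for the 2 proximal tubule lists against clusters named as other classes. They were called PT-like at any positive score with at least 3 markers raised and no other class scoring 0.5. In clusters 7 and 30, with 1264 nuclei in all, this score stayed under 0.5. After both steps 4 clusters with 1569 nuclei stayed unnamed. Counts were summed per library and class and tested with edgeR 4.0.16 in R 4.3.3 (TMM, filterByExpr, quasi-likelihood F test, 9 libraries in 1 fit, threshold 0.05). Intervals and floors use 95% and 3 counts. Alternatives included DESeq2 1.42.0, filters, depth, barcode set, clustering and leaving out each library. Scripts were tested on simulated data. The labels number mice within groups, and same-numbered mice were not paired (correlations of deviations from −0.264 to 0.004 over 11016 genes). The genes nearest to each member were the 3 with the highest correlation, and pathway genes were named from fixed lists. Members and lists were chosen with earlier results of these data known.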

Additional observations from a re-analysis of the deposited data

Results flagged for a closer look

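Between day 28 and day 7, the difference itself passed in edgeR for Ccl2 (3.04 on the log2 scale, adjusted p = 0.0124), Cxcl16 (1.26, adjusted p = 0.0123) and Gm17268 (5.73, adjusted p = 0.0041), each higher at day 28 in 3 of 3 mice than in both day 7 mice.

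The 4 unnamed clusters, which enter no comparison, held Ccl2, Cxcl1 and Gm17268 in every IRI library above every control library. The lowest IRI library had 7.09 CPM of Ccl2, 44.9 CPM of Cxcl1 and 7.09 CPM of Gm17268. Each of these values for Ccl2 and Gm17268 rests on 6 UMIs in day 7 mouse 2, while control 1, the highest control, had 5 UMIs of Ccl2 (5.66 CPM) and 6 of Gm17268 (6.79 CPM). The nuclei compared were unlike: cluster 20 held 420 day 7, 174 day 28 and 2 control nuclei, cluster 25 held 4, 27 and 330 and cluster 22 held 30, 102 and 389 of the same groups. Pooled by group, Ccl2 had 8.02 CPM at day 7, 62.1 CPM at day 28 and 3.95 CPM in controls, and Cxcl1 had 67.0 CPM, 94.3 CPM and 30.3 CPM in the same groups. By Dixon's ratio no control library passed as an outlier for any member in PT-like nuclei, but with 4 values this check can flag little. The largest ratio was 0.75, for Ccl2, against a critical value of 0.829. For Ccl28 the controls still ranged from 24.2 to 101 CPM.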

How the results depend on the processing

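Of the 4 chemokines, 1 was called at day 7 against control. The number was 2 with no filter on low counts, with nuclei under 1000 UMIs left out, with the barcode set as a term, with only the 2 groups compared, without the PT-like clusters of low score (an alternative chosen after seeing the data) and with the replicate block, and 1 to 2 when each library was left out in turn. The added gene was Cxcl1 or Ccl28. The replicate numbers do not pair the mice, and the replicate block moved the calls of all genes between day 28 and day 7 to 321 higher and 62 lower, against 642 and 199 without it. At day 28 against control the number was 3 to 4 across left-out libraries and 3 under the other alternatives. Between day 28 and day 7 it was 2, 1 with only the 2 groups compared, and 0 to 2 across left-out libraries, with 0 without either day 7 mouse. Within the other barcode set Ccl28 was called besides Ccl2 and Cxcl16. The joint fit of PT-like minus TAL-like is void for the members, none of which passed the filter on TAL-like counts. Its counts of calls under the alternatives are therefore not read. In TAL-like nuclei no member passed the filter in the edgeR fit, so none was tested. No result changed its direction among those computed. Of 370 values of single genes under alternatives, 344 kept their side of the threshold, 15 lost it and 11 gained it. These 370 include values of the void joint fit, so the tally is no measure of how stable the PT-like results are.

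Over all genes, the barcode set as a term gave 1179 higher and 833 lower at day 7 and 1836 higher and 1368 lower at day 28; this term rests on day 28 mouse 1, the one IRI library in the set of the controls. DESeq2 gave 1057 higher and 355 lower between day 28 and day 7. Control Ccl2 rests on 18 PT-like UMIs, and TAL-like values on few nuclei, which limits what either can show.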
